A study of Homo sapiens with 9 samples.

Results

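The core circadian clock genes were measured by RNA sequencing in HMEC-1, an immortalised line of human microvascular endothelial cells. They were chosen by name, as the genes of the transcriptional loop that keeps daily time: PER1, PER2, PER3, CRY1, CRY2, ARNTL, CLOCK, NR1D1, NR1D2 and DBP, 10 of the 29740 gene symbols in the table. The 3 groups were untreated cells (CTRL), cells given 50 µM trimethylamine N-oxide (TMAO, a metabolite that gut microbes and the liver make from dietary choline and carnitine) for 24H, and cells given the same dose for 48H. Each group held 3 libraries, all from the same cell line with no genetic change made for the study. By the study's methods, TMAO was given in medium with reduced serum, and the medium of the controls is not described separately. The study combined the untreated cells of 24H and 48H into a single control group whose labels give no time, so an effect of TMAO at a time-point cannot be told apart from one of the hours in culture or of the hour of harvest. Each comparison asked whether the level of a clock gene's RNA differed after TMAO, and a population of cells whose clocks are not aligned in time gives an average over all phases.

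In the clock, the proteins ARNTL (also called BMAL1) and CLOCK pair up and bind E-box sequences, where they switch on the PER, CRY, NR1D and DBP genes. PER and CRY proteins accumulate, enter the nucleus and hold back the ARNTL-CLOCK pair, which closes the loop after about a day. NR1D1 and NR1D2 (REV-ERBα and REV-ERBβ) repress ARNTL at ROR response elements, and DBP acts on D-box sequences in genes such as those of the PER family. In the vessel wall, endothelial clocks are known to take part in daily rhythms of vascular tone, coagulation and leukocyte adhesion.

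Total estimated counts per library ranged from 25205756 to 36927373. The library TMAO 24H replicate 1 stood apart: its share of counts on 6 ribosomal RNA genes was 31.5%, where the remaining libraries had 1.64% to 7.46%. All 12 endothelial markers on the list were detected in every library, with CLDN5 lowest at 32 to 59 counts, and markers of other cell types were uneven. Of 8 fibroblast markers, COL1A1 had 10561 to 22748 counts, COL1A2 3659 to 10131, PDGFRB 1066 to 1586, COL3A1 800 to 1109 and THY1 418 to 686, while PDGFRA had 3 to 13, DCN 0 to 2 and LUM 0 to 1. Among leukocyte markers, CD14 had 21 to 44 counts, PTPRC 0 to 3 and CD3E 0. The epithelial markers KRT18 and KRT8 had 14469 to 21555 and 1226 to 2068 counts, KRT19 127 to 240, EPCAM 33 to 275 and CDH1 30 to 140. The part of other cell types in the results was not tested. All 10 clock genes had counts in every library, from 65 for DBP to 3647 for NR1D2, and all of them passed the filter on low counts. Levels are given as CPM, a gene's counts divided by library size after TMM scaling, with SD over the 3 libraries of a group.

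Per kilobase of the longest coding transcript, NR1D2 and CRY1 were the most abundant clock genes, at 17.2 and 16.1 CPM per kilobase over the 9 libraries. CLOCK followed at 6.55, PER3 at 6.17 and PER1 at 5.82 CPM per kilobase. NR1D1 lay at 4.15, CRY2 at 3.56 and ARNTL at 2.71, and the lowest levels were those of PER2 at 1.5 and DBP at 1.26 CPM per kilobase, so that the top and bottom of the order differed by 13.6 times. The ranges over libraries overlapped between NR1D2 and CRY1, between CLOCK, PER3 and PER1, between NR1D1 and CRY2, and between PER2 and DBP, and did not overlap between CRY2 and ARNTL. Places in this order depend on the transcript assumed: with the median length of the basic coding transcripts in place of the longest, CLOCK came to 16.6 CPM per kilobase and stood beside CRY1. ARNTL2, the paralog of ARNTL, measured 11.7 CPM per kilobase of its longest coding transcript against 2.71 for ARNTL itself, whereas NPAS2, the paralog of CLOCK, measured only 0.453.

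Promoter windows of 250 bases before to 50 after the start site were taken from RefSeq (GRCh38.p14) for all 10 clock genes, in 15 windows, with ARNTL listed there as BMAL1. They were searched on both strands for the E-box CACGTG, the E-prime box CACGTT, the D-box TTATGTAA, the half-site AGGTCA of the ROR response element and the cAMP response element TGACGTCA, motifs that do not overlap in the windows printed. Of 35116 promoter windows of this length, 7.256% held the E-box, 5.342% the E-prime box, 0.886% the D-box, 13.831% the half-site and 1.848% the cAMP response element. The windows below are those of the genes that the comparisons turn on, printed 5′ to 3′ on the gene's strand with the motif letters in capitals. They belong to NR1D2 (chr3:23945871-23946170, plus strand), CLOCK (chr4:55545883-55546182, minus strand), PER1 (chr17:8152355-8152654, minus strand), NR1D1 (chr17:40100540-40100839, minus strand) and TEF (chr22:41381692-41381991, plus strand), a D-box binding relative of DBP.
NR1D2: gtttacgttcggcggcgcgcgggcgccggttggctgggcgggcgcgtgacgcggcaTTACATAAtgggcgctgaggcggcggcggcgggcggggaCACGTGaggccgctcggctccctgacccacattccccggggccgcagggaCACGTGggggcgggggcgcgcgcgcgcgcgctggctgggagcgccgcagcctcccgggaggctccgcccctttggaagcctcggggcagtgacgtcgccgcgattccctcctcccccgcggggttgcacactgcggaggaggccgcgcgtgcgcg
CLOCK: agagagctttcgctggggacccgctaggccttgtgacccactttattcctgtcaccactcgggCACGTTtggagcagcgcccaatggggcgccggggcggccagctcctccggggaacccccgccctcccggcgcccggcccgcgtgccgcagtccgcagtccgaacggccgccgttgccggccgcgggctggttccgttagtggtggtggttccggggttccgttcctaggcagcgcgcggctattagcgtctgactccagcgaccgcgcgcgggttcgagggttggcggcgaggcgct
PER1: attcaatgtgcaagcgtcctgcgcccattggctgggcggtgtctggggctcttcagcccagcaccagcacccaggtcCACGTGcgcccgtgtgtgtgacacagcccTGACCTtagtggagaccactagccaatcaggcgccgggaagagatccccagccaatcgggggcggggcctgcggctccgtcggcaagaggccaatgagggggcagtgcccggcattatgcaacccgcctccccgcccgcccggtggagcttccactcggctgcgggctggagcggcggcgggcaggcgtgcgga
NR1D1: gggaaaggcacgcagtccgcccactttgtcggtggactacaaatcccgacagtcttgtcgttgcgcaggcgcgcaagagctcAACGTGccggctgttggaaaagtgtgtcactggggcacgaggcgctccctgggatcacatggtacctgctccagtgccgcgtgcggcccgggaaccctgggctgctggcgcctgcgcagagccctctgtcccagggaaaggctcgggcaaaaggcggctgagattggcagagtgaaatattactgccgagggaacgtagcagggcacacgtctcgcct
TEF: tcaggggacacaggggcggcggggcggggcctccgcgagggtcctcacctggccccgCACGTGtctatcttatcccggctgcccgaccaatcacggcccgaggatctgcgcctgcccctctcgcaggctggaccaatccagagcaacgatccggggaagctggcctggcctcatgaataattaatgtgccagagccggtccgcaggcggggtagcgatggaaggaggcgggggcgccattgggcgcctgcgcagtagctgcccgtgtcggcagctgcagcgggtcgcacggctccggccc

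The NR1D2 window held E-boxes 105 and 155 bases before the start and a D-box 194 bases before it, the only clock gene window with more than 1 E-box. PER1 held an E-box 173 bases before the start and a half-site 144 bases before it, and TEF held an E-box 193 bases before the start. The CLOCK and NR1D1 windows held an E-prime box, 187 and 168 bases before the start. Of the windows not printed, that of PER2 held an E-prime box at 197 bases and that of CRY1 at 89 bases before the start, PER3 held a D-box at 177 bases before, ARNTL a half-site 31 bases after the start, CRY2 a half-site at 62 or 64 bases and an E-prime box at 188 bases before it, and DBP none of these letters. The other window of TEF held an E-box at 195 bases before the start, and the other windows of NR1D2, CLOCK and ARNTL held none. A match describes the letters of the window and was not tied to binding by any measurement here.

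At 24H of TMAO, none of the 10 clock genes passed the test compared to the control, with 0 higher and 0 lower at an adjusted p under 0.05. In edgeR's quasi-likelihood test with Benjamini-Hochberg adjustment, 0.095% of all 14740 tested genes passed in this comparison. No clock gene reached an unadjusted p under 0.05 either, against 7.24% of all tested genes. DESeq2 called 0 of 10 as well, in a comparison where it called only 55 genes in all. At the added threshold of a 1.4-fold change 0 clock genes and 0.0475% of all genes were called. The data limit how large a change could have gone undetected: for 9 of the 10 genes the 95% interval of the difference lay within 1.4-fold in both directions. The exception was DBP, the gene with the lowest counts, whose interval ran from 0.681 to 1.09 times the control. The 3 libraries at 24H lay outside the range of the controls for 2 of the 10, PER1 and NR1D1, both lower, beside 14.2% of all tested genes whose groups did not overlap (6.73% higher and 7.52% lower).

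At 48H, 2 of the 10 clock genes were higher than in the control and 0 were lower. These were CLOCK, the histone acetyltransferase partner of ARNTL, at 1.19 times the control level, and NR1D2, the more abundant REV-ERB, at 1.17 times. In the same comparison 10.4% of all tested genes passed, 5.14% as higher and 5.29% as lower. With a change of at least 1.4-fold also asked for, no clock gene was called, against 1.8% of all genes. The 48H libraries did not overlap the controls for 3 of the 10, CLOCK, NR1D2 and PER2, all higher, beside 27.8% of all genes (14.7% higher and 13% lower). The median log2 fold change of the 10 was 0.012 and of all genes 0.004, and the median size of the change regardless of sign was 0.041 for the clock genes and 0.11 for all genes.

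Between 48H and 24H of TMAO, NR1D2 was the 1 clock gene of 10 that passed, higher at 48H, where 7.53% of all tested genes passed, 3.77% in each direction. At an unadjusted p under 0.05 there were 2 clock genes, NR1D2 and CLOCK, against 22.1% of all genes, and at 1.4-fold there were 0 against 1.71%. NR1D2 was also the only clock gene whose 2 groups did not overlap, beside 27.6% of all genes (14.7% higher and 12.9% lower). Both TMAO time-points were compared with the same 3 controls, so those 2 comparisons are not independent of each other.

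**Figure D1:**
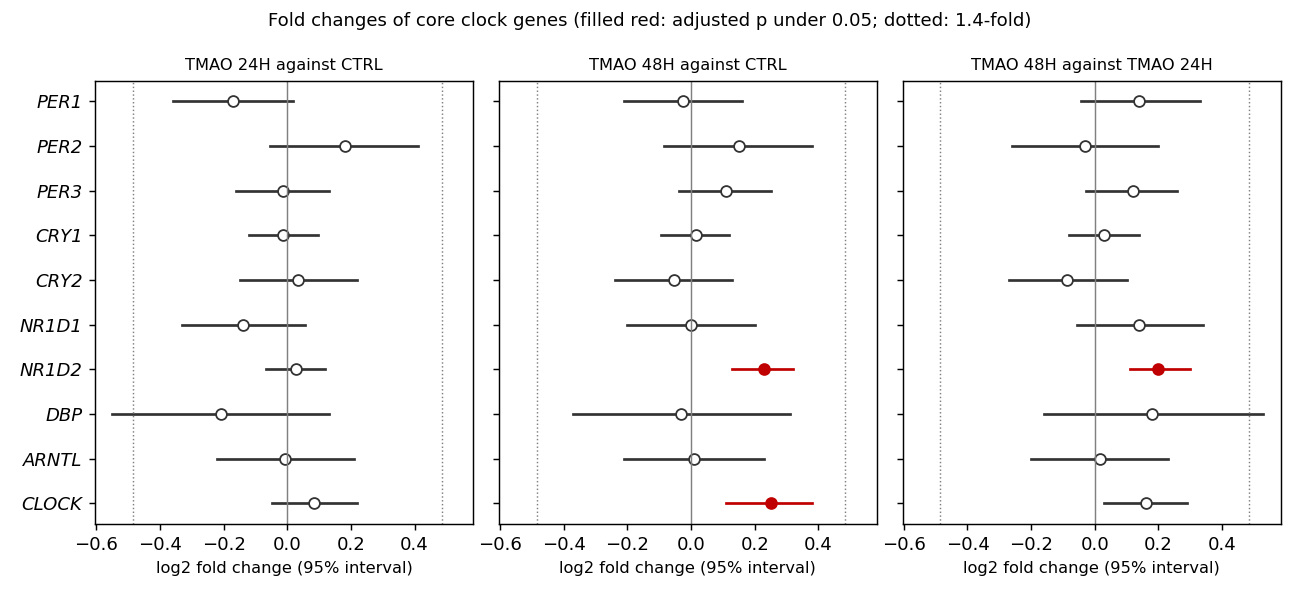
Points are log2 fold changes of the 10 clock genes and lines their 95% intervals in 3 comparisons, filled red where the adjusted p is under 0.05 and with dotted lines at a 1.4-fold change. CLOCK and NR1D2 at 48H and NR1D2 between the time-points are filled, at log2 values of 0.25, 0.23 and 0.20, and the intervals of DBP at 24H and between the time-points are the only ones to cross a dotted line.

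Among the activators, CLOCK rose at 48H and ARNTL did not pass in any comparison. CLOCK measured 63.5, 57.5 and 66.0 CPM in CTRL replicates 1 to 3, 70.6, 64.6 and 63.2 CPM at 24H, and 70.0, 77.9 and 73.8 CPM at 48H. Every 48H library lay above every control, while the 24H libraries overlapped both other groups. CLOCK rose from 62.3 ± 4.40 to 73.9 ± 3.96 CPM at 48H (SD, n = 3), a log2 fold change of 0.25 with standard error 0.0611 (edgeR, adjusted p = 0.0223). At 24H its log2 fold change was 0.085 (adjusted p = 0.839), and between 48H and 24H it was 0.16 with an interval from 0.029 to 0.29 (adjusted p = 0.138), so a difference between the time-points was not shown. The call at 48H rested on single libraries: without CTRL replicate 1, CTRL replicate 2 or TMAO 48H replicate 2 the adjusted p was 0.0517, 0.0998 and 0.106. ARNTL, its DNA-binding partner and the usual target of REV-ERB repression, measured 7.91, 8.15 and 6.59 CPM in the controls, 7.29, 7.52 and 7.74 CPM at 24H, and 7.35, 7.85 and 7.60 CPM at 48H. All treated libraries lay inside the range of the controls, and the 48H difference was 0.0098 on the log2 scale with an interval from -0.21 to 0.23.

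Of the REV-ERB repressors, NR1D2 rose at 48H and NR1D1 did not pass in any comparison. NR1D2 measured 85.7, 83.1 and 86.2 CPM in the controls, 87.8, 86.9 and 85.2 CPM at 24H, and 98.4, 106 and 94.9 CPM at 48H. The 24H libraries overlapped the controls, and all 48H libraries lay above the other 6. NR1D2 rose from 85.0 ± 1.66 to 99.6 ± 5.45 CPM (SD, n = 3) at 48H, a log2 fold change of 0.23 with standard error 0.0445 (edgeR, adjusted p = 0.00612). Against 24H it rose by a log2 fold change of 0.20 with standard error 0.0445 (adjusted p = 0.0141), which is the test of the difference between the time-points itself. Leaving out single libraries kept the call against the control in 6 of 6 fits, with adjusted p from 0.00421 to 0.0352. The call against 24H was lost without TMAO 24H replicate 2 (0.0516), TMAO 24H replicate 3 (0.0684) or TMAO 48H replicate 2 (0.0741), and it held without the library rich in ribosomal RNA (log2 fold change 0.21, adjusted p = 0.0465).

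NR1D1, the better known REV-ERB and a strong E-box target, measured 11.2, 12.6 and 11.8 CPM in the controls, 10.8, 10.3 and 11.1 CPM at 24H, and 10.4, 12.3 and 12.8 CPM at 48H. All 24H libraries lay below all controls, though 11.1 and 11.2 CPM were close, and the 48H libraries spread across both groups. The 24H log2 fold change was -0.14 with an interval from -0.33 to 0.057 (edgeR, adjusted p = 0.817), and at 48H both means were 11.9 CPM. NR1D1 shares 263 of its 2772 exonic bases (9.488%, GENCODE 29) with THRA on the opposite strand, and its deposited counts were not whole numbers in 9 of 9 libraries, at a tolerance of 0.01. Whether the counting used strand was not given in the sources used here, so reads from the shared bases cannot be assigned to NR1D1 or THRA with certainty. The same holds for PER3 and UTS2, which share 10.717% of the exonic bases of PER3, and for DBP and SPHK2 with 10.101% of those of DBP, although the counts of both were whole numbers.

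**Figure D2:**
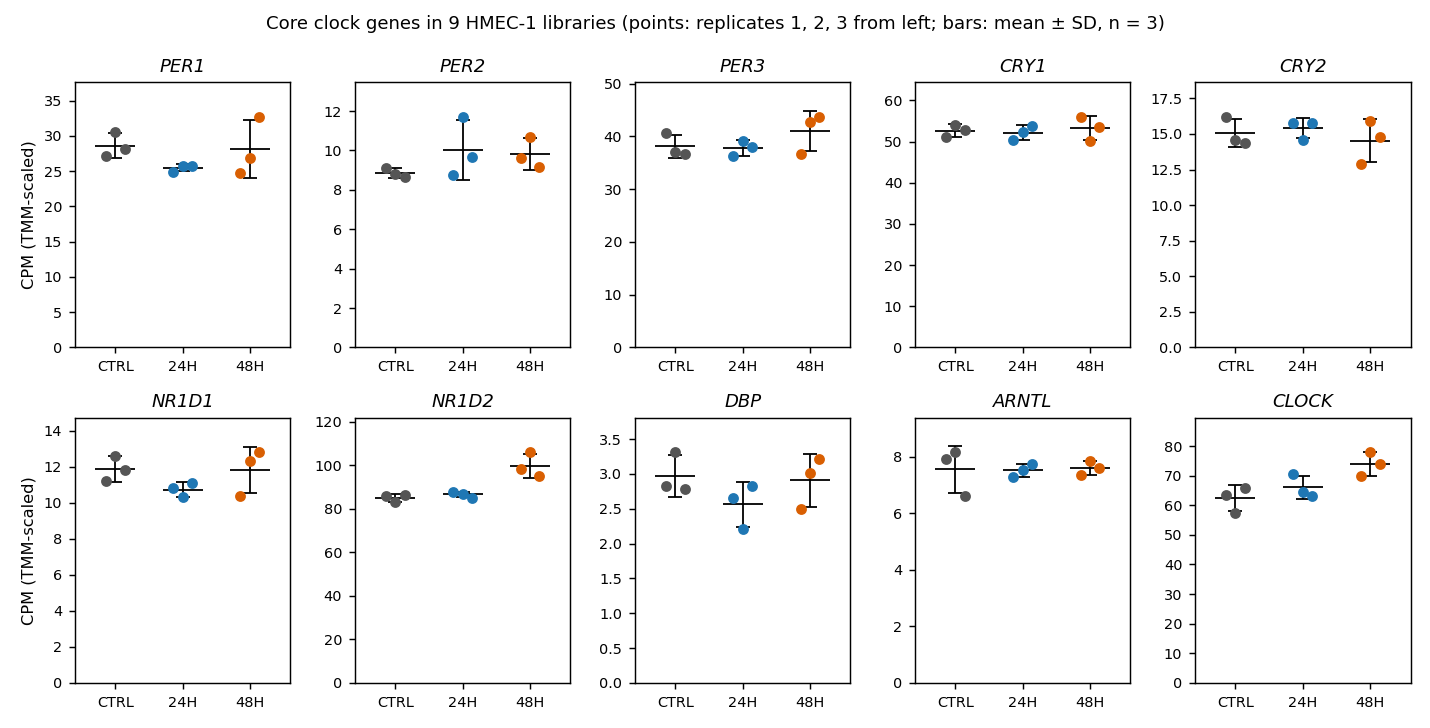
CPM of each clock gene in 9 libraries on axes that start at 0, with points for replicates 1, 2 and 3 from left to right and bars for the mean ± SD of 3 libraries. The 48H points of NR1D2, at 94.9 to 106 CPM, stand above the other 6, and those of CLOCK, at 70.0 to 77.9 CPM, stand above the controls.

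The PER genes, whose proteins form the repressor complex with CRY, did not pass in any comparison. PER1, the member known for fast induction by cAMP and glucocorticoid signals, measured 27.2, 30.6 and 28.1 CPM in the controls, 24.9, 25.7 and 25.8 CPM at 24H, and 24.8, 26.9 and 32.7 CPM at 48H. The 24H libraries were tightly grouped and all below the controls, whereas the 48H libraries ran from the lowest to the highest value of all 9. Its 24H level was 0.889 times the control, with an interval from 0.781 to 1.01 (edgeR, adjusted p = 0.731), and its log2 fold change was -0.15 without the library rich in ribosomal RNA. At 48H the ratio was 0.982, with an interval from 0.863 to 1.12.

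PER2, which carries much of the repressor function in the loop, measured 9.12, 8.80 and 8.65 CPM in the controls, 8.73, 11.7 and 9.65 CPM at 24H, and 9.61, 10.7 and 9.15 CPM at 48H. Every 48H library lay above the highest control, and 1 of the 24H libraries lay among the controls. The log2 fold changes were 0.18 at 24H (interval -0.055 to 0.41) and 0.15 at 48H (interval -0.086 to 0.38), with adjusted p of 0.795 and 0.425 in edgeR. PER3 measured 40.6, 37 and 36.7 CPM in the controls, 36.2, 39.1 and 38.0 CPM at 24H, and 36.7, 42.7 and 43.7 CPM at 48H. TMAO 48H replicates 2 and 3 exceeded all other libraries and replicate 1 equalled the lowest control. PER3 differed from the control by -0.012 at 24H and by 0.11 at 48H on the log2 scale, the latter with an interval from -0.039 to 0.25 (adjusted p = 0.347).

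CRY1 and CRY2, the light-insensitive cryptochromes that block ARNTL and CLOCK directly, did not pass in any comparison. CRY1 measured 51.1, 54.1 and 52.8 CPM in the controls, 50.4, 52.3 and 53.9 CPM at 24H, and 56.0, 50.2 and 53.5 CPM at 48H. The 3 groups overlapped throughout, and the intervals of its fold change were 0.919 to 1.07 at 24H and 0.937 to 1.09 at 48H. CRY2 measured 16.2, 14.6 and 14.4 CPM in the controls, 15.8, 14.6 and 15.8 CPM at 24H, and 12.9, 15.9 and 14.8 CPM at 48H. Apart from the low TMAO 48H replicate 1, its libraries fell within 1 common range, with fold changes of 1.02 (interval 0.899 to 1.16) at 24H and 0.964 (interval 0.847 to 1.10) at 48H.

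DBP, the PAR bZIP output factor whose RNA swings widely in rhythmic tissues, had the lowest CPM of the clock genes. It measured 2.82, 3.31 and 2.78 CPM in the controls, 2.65, 2.21 and 2.83 CPM at 24H, and 2.49, 3.01 and 3.22 CPM at 48H. The groups overlapped at both time-points. Its 24H log2 fold change was -0.21 with a standard error of 0.159, the widest error of the 10 genes, and at 48H it was -0.030 (edgeR, adjusted p = 0.849 and 0.933).

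The libraries of a group also differed among themselves. In TMAO 48H replicate 1, 9 of the 10 clock genes lay below their group mean, CRY1 being the exception. PER1, NR1D1 and DBP had deviations there of -0.17, -0.18 and -0.22 on the log2 CPM scale, and in TMAO 48H replicate 3 lay above the mean, at 0.23, 0.12 and 0.15. PER3 lay at -0.16 and 0.095 in the same libraries, and CRY2 at -0.17 in replicate 1. Among the controls, replicate 2 was the highest for PER1, NR1D1 and DBP, at 0.098, 0.086 and 0.16 above the mean, and also for ARNTL (0.12) and CRY1 (0.039). The SD of PER1 within 48H was 0.207, and it was 0.189 after a correction for GC content, so the spread was nearly as large with that correction.

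The balance between the arms of the loop, which swings across the day in rhythmic cells, was described per library and not tested. Exposures of 24H and 48H may end at a like phase of a daily cycle, so overlap between these groups cannot decide whether phase differed. The log2 ratio of NR1D1 to ARNTL CPM was 0.51, 0.62 and 0.83 in the controls, 0.57, 0.46 and 0.52 at 24H, and 0.50, 0.65 and 0.75 at 48H. The groups overlapped, and the ratio was more even at 24H (SD 0.0546) than in the controls (SD 0.166). The mean log2 CPM of PER1, PER2, PER3, NR1D1, NR1D2 and DBP minus that of ARNTL and CLOCK was -0.37, -0.26 and -0.29 in the controls, -0.46, -0.38 and -0.37 at 24H, and -0.44, -0.38 and -0.30 at 48H. The treated libraries other than TMAO 48H replicate 3 lay near or below the lowest control in this difference. Group means were -0.31, -0.40 and -0.37, with SDs of 0.0556, 0.0513 and 0.0688. These values had no correction for GC content, which was 62.7% in PER1, 59.4% in NR1D1 and 65.5% in DBP, against 37.2% in CLOCK. With correction, 48H log2 fold changes rose for PER1 (-0.026 to 0.068), PER2 (0.15 to 0.16), NR1D1 (0.00059 to 0.066) and DBP (-0.03 to 0.089). They fell for CLOCK (0.25 to 0.16), ARNTL (0.0098 to -0.021), NR1D2 (0.23 to 0.15) and PER3 (0.11 to 0.082). Whether the group means differ with the correction was not tested.

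**Figure D3:**
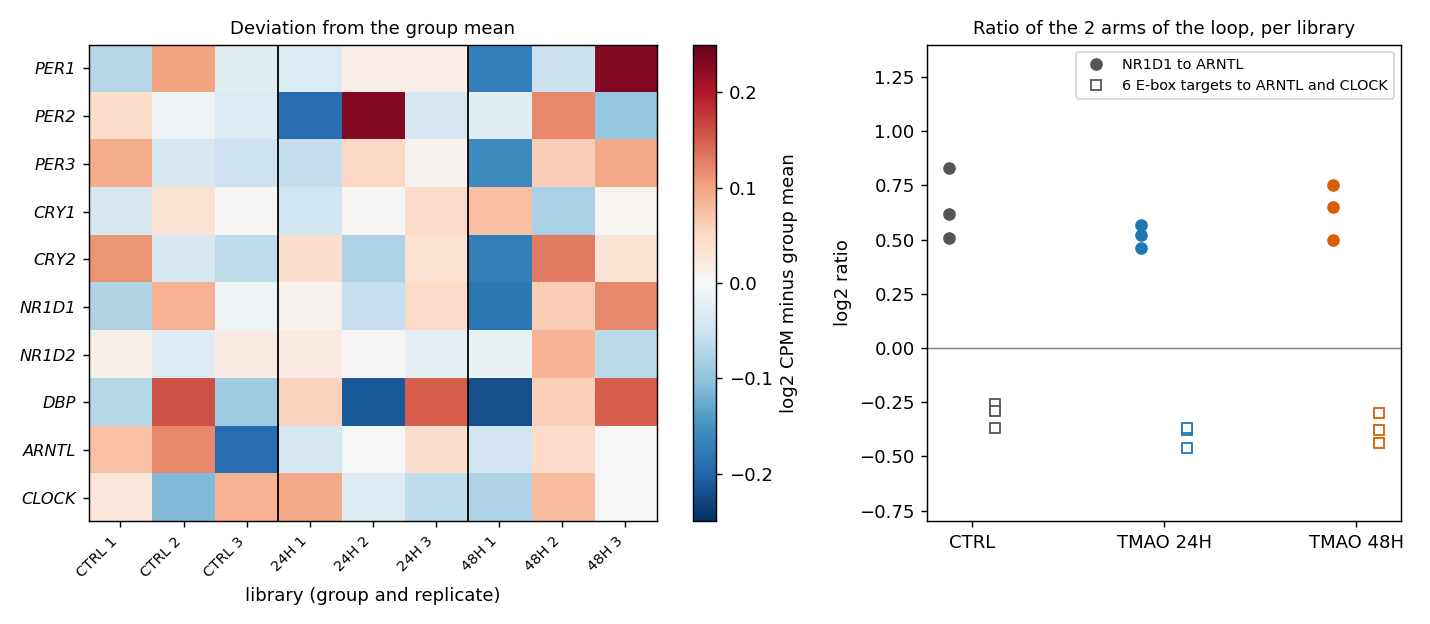
Left, each cell is a gene's log2 CPM in a library minus the mean of its group. Right, filled points are the log2 ratio of NR1D1 to ARNTL, 1 point per library. Open points are the difference between 6 genes and ARNTL with CLOCK. The 6 are PER1, PER2, PER3, NR1D1, NR1D2 and DBP, called E-box targets from earlier knowledge and not from the promoter windows above. In TMAO 48H replicate 1 the PER1, NR1D1 and DBP cells are at -0.17, -0.18 and -0.22 and those of PER3 and CRY2 at -0.16 and -0.17, and the ratios of the 3 groups overlap.

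CLOCK and NR1D2 were also the clock genes with the lowest GC content, 37.2% and 38.5% of their longest coding transcript, where DBP had 65.5%, PER1 62.7% and NR1D1 59.4%. Across all tested genes at 48H, fold changes moved with GC content: the 2028 genes under 40% GC had a median log2 fold change of 0.082 with 12% called higher and 1.58% lower, and the 2263 genes at 60% or more had a median of -0.10 with 1.72% called higher and 13.9% lower. With a correction for GC content in each library, NR1D2 kept its call at a smaller size (log2 fold change 0.15, standard error 0.0398, edgeR adjusted p = 0.0394) and CLOCK did not (log2 fold change 0.16, adjusted p = 0.101). The corrected difference of NR1D2 between the time-points was 0.15 (adjusted p = 0.0414). Under the same correction the GC-rich members NR1D1, PER1 and DBP stood at 0.066, 0.068 and 0.089 at 48H, none of which passed.

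**Figure D4:**
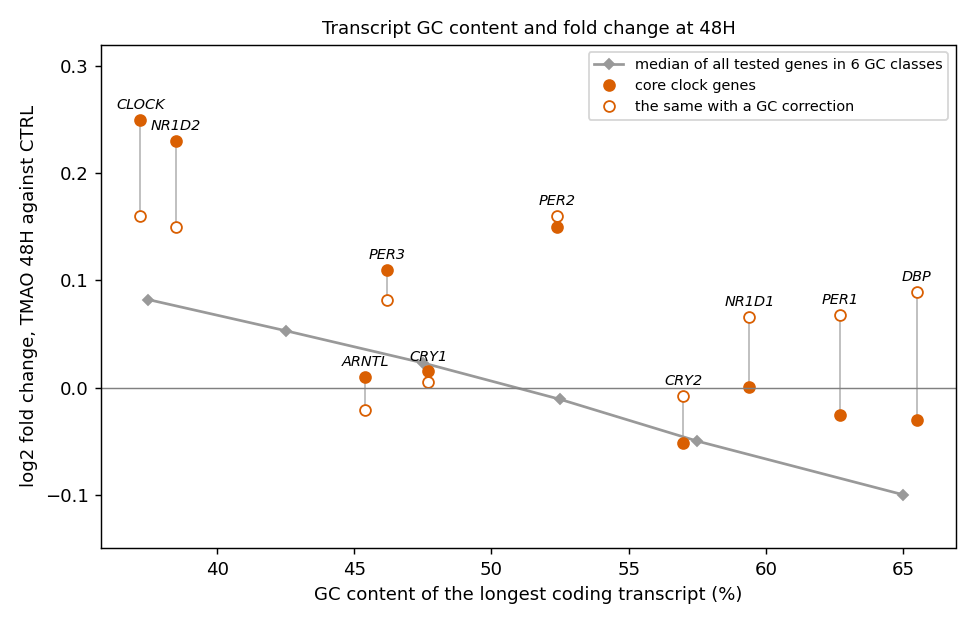
The log2 fold change at 48H of each clock gene is plotted against the GC content of its longest coding transcript in percent, without (filled) and with (open) a GC correction, and the grey line joins the medians of all tested genes in 6 GC classes, each drawn near the middle of its class. The grey line uses fold changes without the correction and falls from 0.082 under 40% GC to -0.10 at 60% and over. The filled points of CLOCK and NR1D2 lie above it at 0.25 and 0.23. Their values with the correction, 0.16 and 0.15, are not to be read against that line.

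Cell type markers also differed at 48H. Of the 12 endothelial markers 7 were lower at 48H, beside 5.29% of all tested genes called lower. The other 5 did not pass, with log2 fold changes of 0.15 for ESAM, 0.091 for VWF, 0.005 for EMCN, -0.14 for TEK and -0.15 for CLDN5. The summed level of the 12 was 2780 to 3160 CPM in the controls, 2800 to 3000 CPM at 24H and 2470 to 2720 CPM at 48H. The summed level of the 8 fibroblast markers was 973 to 1130 CPM in the controls and 637 to 695 CPM at 48H, with COL1A1 and COL1A2 lower, THY1 higher and the defining markers DCN and LUM at 0 to 2 counts in every library. Of the 4 smooth muscle markers ACTA2 was higher, with summed levels of 5.44 to 6.42 and 8 to 9.61 CPM. Of the 5 epithelial markers KRT18 was lower, with summed levels of 680 to 776 and 608 to 635 CPM. KRT18 made up most of that sum. EPCAM and CDH1 did not pass and were uneven at 48H, at 5.84 ± 4.21 and 3.25 ± 2.01 CPM (SD, n = 3), against 7.31 ± 0.687 and 3.22 ± 0.38 CPM in the controls. The 4 leukocyte markers summed to 1.09 to 1.22 CPM in the controls and 0.957 to 1.36 CPM at 48H. The part of these shifts in the rise of CLOCK and NR1D2 was not tested, and in bulk RNA fewer cells of a type and less RNA per cell cannot be told apart.

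Around the core loop, 67 associated genes were listed in 5 groups by role, and 63 were tested. The other 4, among them RORB, HLF and FBXL21, were too low in counts for the test. At 24H, 0 of 63 passed in edgeR, beside 0.095% of all tested genes. DESeq2 also called 0 of the 63, where it called 55 genes in all. An unadjusted p under 0.05 was found for 3 of the 63, beside 7.24% of all tested genes. At 48H, 4 were higher and 1 was lower, beside 10.4% of all tested genes. Those that rose were 1 of 3 loop partners, 1 of 9 outputs, 1 of 16 kinases and ligases and 1 of 16 genes of input routes. The median log2 fold change of the 63 genes was 0.051 at 48H, against 0.004 for all genes.

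TEF, the PAR bZIP relative of DBP that binds the same D-box, measured 15.7, 17.4 and 15.1 CPM in the controls, 16.8, 17.5 and 16.7 CPM at 24H, and 22.2, 21.9 and 20.0 CPM at 48H. All 48H libraries were clear of the other 6. TEF rose to 1.33 times the control at 48H (log2 fold change 0.41, standard error 0.0722, edgeR adjusted p = 0.00376) and by 0.33 on the log2 scale against 24H (standard error 0.0721, adjusted p = 0.0139). With the GC correction the 48H value was 0.45 (adjusted p = 0.00218), so the rise of this gene, at 56.7% GC, was as large with the correction. Against 24H its call was lost without TMAO 24H replicate 1 (0.0515), TMAO 24H replicate 3 (0.0635) or TMAO 48H replicate 2 (0.0635).

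ARNTL2, which can stand in for ARNTL beside CLOCK, measured 72.9, 68.9 and 73.5 CPM in the controls, 80.1, 80.5 and 74.4 CPM at 24H, and 89.1, 88.4 and 84.2 CPM at 48H. The 3 groups did not overlap, with 24H between the control and 48H. ARNTL2 rose at 48H by a log2 fold change of 0.28 (standard error 0.0463, edgeR adjusted p = 0.00236), or 0.22 with the GC correction (adjusted p = 0.00452), and its 24H value of 0.13 did not pass (adjusted p = 0.567). Between 48H and 24H its value of 0.15 did not pass either (edgeR, adjusted p = 0.062), so a stepwise rise was not shown. Its paralog ARNTL, in contrast, stood at 0.0098 at 48H. The difference between the 2 paralogs was not tested.

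KLF9, a glucocorticoid-induced repressor, measured 24.1, 26.5 and 27.3 CPM in the controls, 27.1, 26.3 and 26.4 CPM at 24H, and 30.0, 31.6 and 29.5 CPM at 48H. Its 48H libraries lay above all others, with a log2 fold change of 0.22 (edgeR, adjusted p = 0.0301) that was 0.20 with the GC correction (adjusted p = 0.0639). With only the 2 groups compared its adjusted p was 0.0724. KLF9 lost its call without CTRL replicate 1 (0.110), CTRL replicate 2 (0.0685) or TMAO 48H replicate 2 (0.123). FBXW11, a ubiquitin ligase subunit that marks PER proteins for decay, went from a mean of 104 to 114 CPM (log2 fold change 0.13, adjusted p = 0.0495), and leaving out any of the 6 libraries took it over the threshold, with adjusted p from 0.0566 to 0.173. Its adjusted p was also over 0.05 with RLE factors (0.0552), without an expression filter (0.103), with the older quasi-likelihood fit (0.0548), without ribosomal RNA genes (0.0616), with the GC correction (0.150) and with only the 2 groups compared (0.137).

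**Figure D5:**
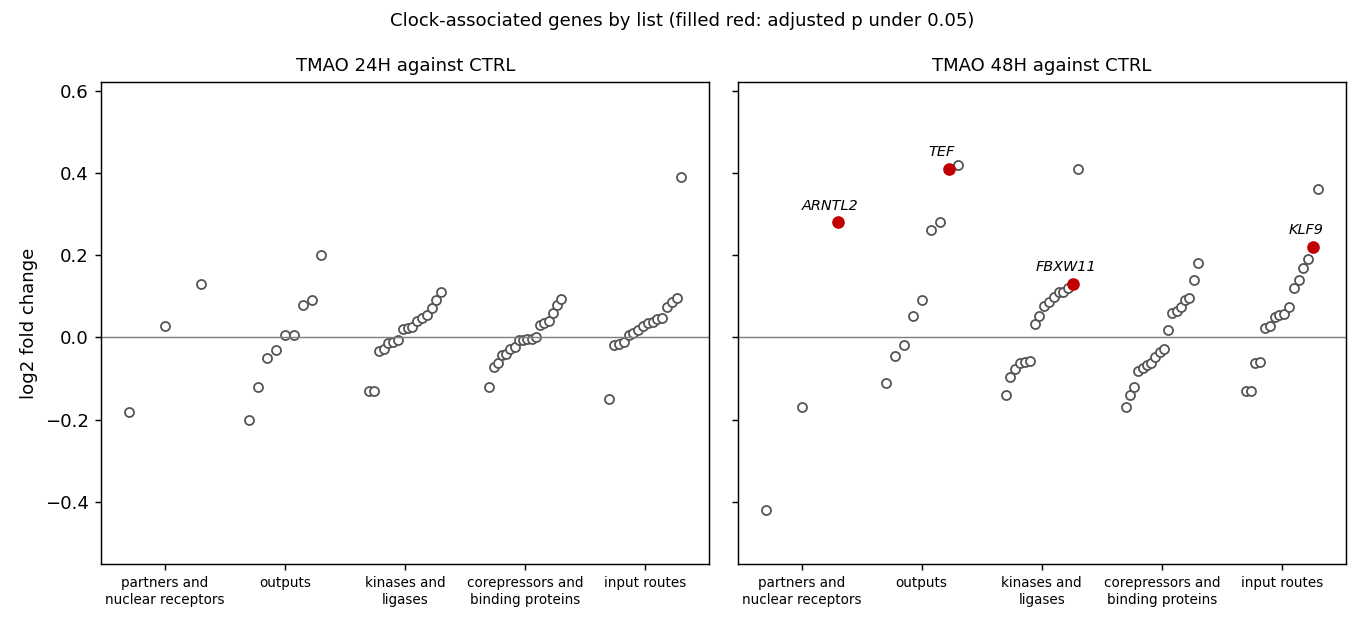
Points are log2 fold changes of 62 of the 63 tested clock-associated genes in 5 groups by role, at 24H (left) and 48H (right) against the control, filled red and named where the adjusted p is under 0.05. No point is filled at 24H, and at 48H TEF (0.41), ARNTL2 (0.28), KLF9 (0.22) and FBXW11 (0.13) are filled.

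The genes whose log2 CPM followed NR1D2 most closely over the 9 libraries were CHST3 (Pearson r = 0.981), MAGI3 (0.979) and CPEB4 (0.974), and those closest to CLOCK were BACH1 (0.980), ATP13A3 (0.980) and KIAA1958 (0.971), among 12328 candidates with a mean normalised count of at least 50. The 9 points share their libraries and their 3 groups, so these values describe likeness of pattern alone. CHST3, MAGI3 and CPEB4 had log2 fold changes of 0.20, 0.25 and 0.23 at 48H and of 0.052, 0.039 and 0.033 at 24H, side by side with 0.23 and 0.028 for NR1D2. BACH1 and ATP13A3 stood at 0.11 and 0.13 at 48H and KIAA1958 at 0.38, around the 0.25 of CLOCK.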

How the data were processed

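RNA sequencing of HMEC-1 gave 9 libraries in 3 groups. Reads went through the nf-core RNAseq pipeline, and the authors deposited its estimated counts (expected counts) per gene symbol, without normalisation. The submitters' processing notes name Trim Galore. The quantifier, genome build, annotation and strand setting are not given in the sources used here. Groups and replicate numbers came from the labels. The study's methods speak of independent experiments for its data in general, but the labels tie no library to a culture, so p-values measure only the spread between these samples, which may be technical.

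After rounding to whole numbers, all 9 libraries were fitted in edgeR 4.0.16 (R 4.3.3) by the quasi-likelihood method (glmQLFit, legacy = FALSE) on the 14740 genes that filterByExpr kept, with TMM scaling, Benjamini-Hochberg adjustment over all of them and a threshold of 0.05. The median standard error of the members' log2 fold changes was 0.0866 at 48H, and the biological coefficient of variation was 0.0744. Permuting 3 libraries against 3 exactly cannot give a p below 0.1, so p-values come from edgeR. GC content and length came from GENCODE 29 for 13852 tested genes (94%), promoter windows from RefSeq. The procedure was tested on simulated data.

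All 10 members were named whatever their values, and of the associated lists every gene with an adjusted p under 0.05, up to 6 per comparison, except 1 gene that is not reported here. For likeness, the 3 genes with the highest Pearson correlation were named for each member that passed. The members and lists were chosen with earlier results of these data known. The alternatives were DESeq2 1.42.0, the older quasi-likelihood fit, RLE factors, only the 2 groups compared, a minimum of 10 counts per library or no filter, a 1.4-fold threshold, ribosomal RNA genes left out, a GC correction per library, the replicate number as a block and leaving out each library in turn. Another transcript length for levels per kilobase was chosen after seeing the data.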

Additional observations from a re-analysis of the deposited data

Results flagged for a closer look

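NR1D2 differed between the time-points of TMAO: its response to 48H against the shared controls exceeded that to 24H by a log2 fold change of 0.20, by edgeR's test of 48H against 24H (adjusted p = 0.0141), and all 3 of the 48H libraries lay above all 3 of the 24H libraries. TEF differed in the same way, by 0.33 (adjusted p = 0.0139), again with no overlap between libraries. In both genes the adjusted p passed 0.05 in 3 of the 6 fits that left out a library.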

How the results depend on the processing

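Fold changes were followed across settings for the 10 clock genes and for TEF, ARNTL2, FBXW11 and KLF9, which had passed at 48H. The other associated genes entered only the counts of genes called. Of 378 such fold changes under settings other than leaving out a library, 355 kept their direction and their side of the threshold. With the GC correction, 1 clock gene (NR1D2) and 2 associated genes passed at 48H, beside 7.29% of all tested genes, where the reported fit called 10.4%. PER1 (0.068), ARNTL (-0.021) and DBP (0.089) turned direction at 48H, as did ARNTL between the time-points (-0.0049), all with values that did not pass before or after. With the 1.4-fold threshold 0 clock and 0 associated genes were called at 48H or between the time-points. With only the 2 groups compared, 2 associated genes passed at 48H, a count for which the share of all tested genes is not given here. DESeq2 called 2 associated genes between the time-points, where it called 1227 genes in all. The 48H value of NR1D1 was at zero and turned sign to -0.00063 with DESeq2, -0.0029 with RLE factors, -0.00024 without a filter, -0.0011 with at least 10 counts, -0.0015 without ribosomal RNA genes and -0.0034 with only the 2 groups. The ratio of the highest to the lowest level per kilobase was 11.5 with the other transcript length. Where a cause is not given by the setting itself, the cause was not tested.

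With the replicate number as a block, 1 clock gene and 2 associated genes passed at 48H, beside 6.43% of all tested genes against 10.4% without the block. Adjusted p in edgeR was 0.0588 for CLOCK, 0.0649 for KLF9 and 0.0956 for FBXW11, and NR1D1 stood at -0.0027. Same-numbered libraries had correlations of their deviations from -0.12 to 0.091 over 9 pairs. Differently numbered ones had correlations from -0.10 to 0.16 over 18 pairs. No pairing by number was seen, but with 3 libraries per group a shared culture could go unseen.

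Leaving out each library in turn, the number of clock genes called was 0 in all fits at 24H, 1 to 2 at 48H and 0 to 1 between the time-points, and of associated genes 0, 2 to 7 and 0 to 3. The share of all tested genes called in these fits is not given here, so the counts cannot be set against it. Log2 fold changes that turned sign ranged at 24H from -0.037 to 0.035 for PER3, -0.092 to 0.052 for ARNTL, -0.037 to 0.012 for CRY1 and -0.016 to 0.074 for KLF9. At 48H they ranged from -0.15 to 0.058 for PER1, -0.023 to 0.056 for CRY1, -0.12 to 0.027 for CRY2, -0.084 to 0.068 for ARNTL, -0.059 to 0.086 for NR1D1 and -0.11 to 0.068 for DBP, and between the time-points from -0.12 to 0.093 for PER2, -0.0095 to 0.069 for CRY1 and -0.0077 to 0.040 for ARNTL. With DBP at 65 to 104 counts per library, its changes are the least precise of the 10.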
